A study of Mus musculus with 4 samples.

Results

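The lung transcriptome of Il22 knockout mice was set against that of wild-type mice after house dust mite (HDM), an allergen extract that produces an asthma-like inflammation. The members are all genes of the HDM table with a mean FPKM (fragments scaled by transcript length and library depth) of at least 1 over the 2 libraries, which were 13285 of 23284 genes. That filter used the mean and not the difference, but members and lists were chosen with earlier results of these data known. The mice were C57BL/6, wild type or lacking Il22, sensitized to and challenged with HDM, and whole lung was taken 48 h after the last dose. A further pair of wild-type C57BL/6 lungs received recombinant IL-22 or its vehicle, phosphate-buffered saline (PBS), through the trachea and was collected 24 h later, and is used here only as an outside comparison. Each of the 4 groups is 1 library. The labels do not say whether that is 1 mouse or a pool, how the knockout allele was built, or which C57BL/6 substrain was used. No difference below therefore has a replicate check, none has a p-value, and all are sizes in these libraries.

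IL-22 is a cytokine of T cells and innate lymphoid cells. Its receptor, formed by the chains Il22ra1 and Il10rb, sits mainly on epithelium and other non-haematopoietic cells, where it signals through STAT3. In barrier tissues it is known for inducing antimicrobial and acute phase proteins, epithelial repair and mucus genes, and in the lung it has been linked with both protective and inflammatory roles.

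Differences are knockout minus wild type on the log2(FPKM + 1) scale, which understates changes of low genes. A gene is called lower or higher where the difference is at least 1 in size. By this rule 322 genes (2.42% of those measured) were lower in the knockout and 73 (0.549%) were higher. The median over all measured genes was 0.03, and 90.4% of them differed by less than 1.5-fold. By sign alone, 7154 of them lay above 0 and 6131 below, against which counts above or below 0 in a list are to be read. Very short transcripts give erratic FPKM, and 25 of the lower and 22 of the higher genes were such small RNAs. Of the remaining lower genes 24 were predicted or unnamed and 273 named. Type 2 effector and mucus lists held 26 of all lower genes, 162 stood on other lists, and 134 on none. The account below is of those outside the type 2 and mucus programmes. The 75 lists are described by their counts and medians against the shares above, since members of a list are not replicates.

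**Figure D1:**
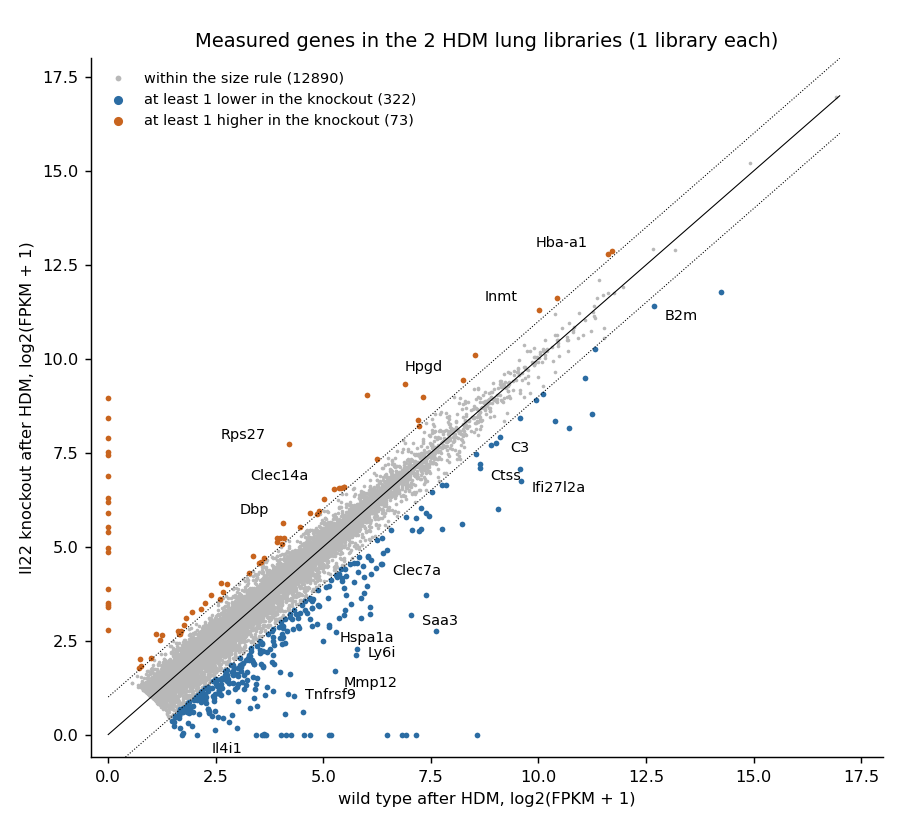
Each point is a measured gene, at its log2(FPKM + 1) in the wild-type (horizontal) and the Il22 knockout (vertical) HDM library. Blue points are the 322 genes at least 1 lower in the knockout and orange points the 73 at least 1 higher, dotted lines mark differences of 1, and the points on the zero lines are mostly small RNAs (16 of 19 lower genes under 0.01 FPKM in the knockout, and 18 of 18 higher genes under 0.01 in wild type).

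By their whole-read steps the libraries held about 25 M (wild type) and 27.3 M (knockout) reads (M for mega), so depth differed by 1.09 times. Reads could be recovered for 264 lower and 41 higher genes, and in each case the exact 95% interval of the read ratio left out an equal level. These intervals cover counting error only. The genes were called from the same values, so the intervals are no separate check of the calls. Il22 itself (chromosome 10, 118204584 to 118210047) was covered by 8 reads in wild type and by 0 in the knockout, and its near copy Iltifb had 5 and 0, and neither had a read with PBS or IL-22. The knockout label was thus not contradicted, but a value of 0 is shared with wild-type lungs given no allergen. Secretory epithelium dominated both libraries: the club cell secretoglobin Scgb1a1 took 18.3% and 18.9% of all FPKM. Of 14 alveolar type I, 14 alveolar type II, 13 club and 14 ciliated cell markers measured, none passed the size rule, with list medians of 0.29, -0.15, 0.07 and -0.20.

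Genes induced by interferons were lower as a broad block in the knockout library. All 34 measured members of the type I interferon list lay below 0 and 25 were lower, with a median of -1.33. Ifi27l2a (chromosome 12, 103433873 to 103443680), a mitochondrial interferon-induced protein, was at 768 FPKM in wild type against 106 in the knockout. Zbp1, a sensor of left-handed nucleic acid, was at 38.1 and 5.60. Oas1a, a synthetase of the RNA-degrading OAS system, was at 14.8 and 2.19, and Ifit1, which binds viral RNA ends, at 60.4 and 12.5. The member nearest to 0 was the exonuclease Isg20, at 75.5 and 62.9, a difference of -0.26. GTPases that interferon gamma induces against intracellular microbes lay below 0 too: all 20 measured members of that list, which also holds Irf1, Ciita and Cxcl9, lay below 0, and 8 were lower, with a median of -0.75. Gbp6 was at 15.5 and 4.90 FPKM, Irgm1 at 33.8 and 14.6, and Tgtp1 at 29.0 and 9.77. Tgtp1 and Tgtp2 are close copies that can share reads, as can Oas1a and Oas1g. Gbp2 and Gbp7 were near level, at -0.35 and -0.17.

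A motif search in promoters gives these genes a feature that the expression values did not use. RefSeq promoter windows (GRCm38.p6, 250 bases before to 50 after a start) matched 10480 measured genes with 13347 windows. The motif was GAAANNGAAA on either strand, the repeat at the core of interferon-stimulated response elements. It stood in 3.16% of all windows, in 14.3% of the windows of lower genes (37 of 258), in 0 of 49 windows of higher genes, in 46.7% of the type I interferon windows (14 of 30) and in 60% of those of the GTPase list (9 of 15). Seen from the motif, 33 of 404 genes with it were lower (8.17%) and 0 higher, against 190 lower (1.89%) of 10076 genes without it. Within the type I interferon list 10 of 13 genes with the motif and 7 of 12 without it were lower, but their medians were alike at -1.15 and -1.20. Of the 2 spacings of the STAT palindrome, TTCNNNGAA stood in 6.98% of all windows and 10.1% of those of lower genes, and TTCNNNNGAA in 5.39% and 10.9%. The first of these also stood in 53.3% of the GTPase windows (8 of 15) and in 16.7% of the type I interferon windows (5 of 30). These are letter matches in short windows and not binding sites. The 150 bases before the start are shown for 4 genes chosen after the matches were seen, 2 from each list, to let the spacing and number of repeats be compared. The capitals mark the motif on either strand, with overlapping matches run together. The windows are chr4:156200819-156200968 (minus strand) for Isg15, chr19:34640739-34640888 (plus) for Ifit1, chr11:48871421-48871570 (minus) for Irgm1 and chr3:142620513-142620662 (plus) for Gbp2.
Isg15: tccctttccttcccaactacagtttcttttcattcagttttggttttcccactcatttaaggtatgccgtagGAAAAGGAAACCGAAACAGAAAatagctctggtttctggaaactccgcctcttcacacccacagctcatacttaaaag
Ifit1: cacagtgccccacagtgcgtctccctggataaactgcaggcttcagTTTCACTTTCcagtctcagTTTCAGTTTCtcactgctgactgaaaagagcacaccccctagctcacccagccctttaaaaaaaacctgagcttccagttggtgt
Irgm1: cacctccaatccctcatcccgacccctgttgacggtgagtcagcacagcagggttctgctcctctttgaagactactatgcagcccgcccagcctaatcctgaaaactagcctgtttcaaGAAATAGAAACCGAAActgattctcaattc
Gbp2: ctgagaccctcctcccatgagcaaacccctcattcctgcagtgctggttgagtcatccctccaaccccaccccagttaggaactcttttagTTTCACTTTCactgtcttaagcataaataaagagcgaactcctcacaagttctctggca
Isg15 held 3 matches, the first starting 78 bases before the start. Ifit1 held 2, from 104 bases before it. Irgm1 held 2, from 30 bases before it, and Gbp2 held 1, at 59. Isg15 was at 66.4 FPKM in wild type against 9.44 in the knockout, and Gbp2 at 48.7 and 38.1, so a match was found both in a gene well past the size rule and in a gene within it.

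Genes of antigen presentation lay mostly below 0, for class I and for class II molecules. In the class I list 19 of 19 measured members lay below 0, 3 were lower and the median was -0.72. B2m (chromosome 2, 122147687 to 122153082), the light chain of class I molecules and an often used reference gene, was at 6535 FPKM in wild type against 2723 in the knockout. The heavy chain H2-K1 was at 1101 and 533, and the peptide transporter Tap1 just missed the rule with a difference of -0.99. In the class II list 13 of 14 members lay below 0 and 2 were lower, H2-Ab1 (980 and 476) and the invariant chain Cd74 (2525 and 1225). Genes of both classes have close copies, so the split of reads between them is uncertain. The STAT and SOCS list was lower in 4 of 24 members, among them Stat2 (19.6 and 8.29) and Bcl3 (16.2 and 7.48). Stat3, the transcription factor of the IL-22 receptor, was at 42.3 and 30.9, a difference of -0.44.

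Many receptors by which macrophages and dendritic cells sense fungi, sugars and antibody were also lower. Of 26 measured C-type lectin and Fc receptor genes 15 were lower and 2 higher, with a median of -1.15. Clec7a (dectin-1, chromosome 6, 129461591 to 129472785), the receptor for fungal beta-glucan, was at 81.0 FPKM in wild type against 22.2 in the knockout. Mgl2 and Clec10a, galactose-type lectins, were at 51.1 against 15.7 and 9.42 against 2.69. Cd209e, a relative of DC-SIGN, had 172 reads against 18, which is a ratio of 0.0957 (exact 95% interval 0.0554 to 0.156). The high-affinity IgG receptor Fcgr1 was at 4.87 and 1.15, and Fcer2a, the low-affinity IgE receptor of B cells, a further lower member, with a difference of -1.49. The 2 higher members were Clec14a, which also stands on the list of endothelial markers, and Clec1a. They were at 92.4 and 58.8 FPKM in the knockout library, where the wild-type library had 36.7 and 24.8. Clec9a, a marker of cross-presenting dendritic cells, was at 6.93 in wild type and 11.7 in the knockout, 0.67 above. Among other receptors of fungal components, Clec4d had 57 reads in wild type against 104 in the knockout (ratio 1.67, 1.2 to 2.35). Clec4e was near level at 52 against 47 (0.545 to 1.25).

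Markers of myeloid cells were lower in part, and their lists share many members with the function lists. Of 24 measured monocyte and interstitial macrophage markers 12 were lower and none higher (median -1.02), and their summed FPKM was 1472 in wild type and 1169 in the knockout. Folr2 was at 10.8 and 2.66 and Ms4a7 at 8.31 and 2.19, while Ly6c2 (101 and 88.6), Apoe (433 and 446) and Lyve1 (152 and 204) were near level or above. Of 18 alveolar macrophage markers 5 were lower and 1 higher (median -0.69, summed FPKM 3128 and 856, of which Chi3l3 made up 2438 and 367). Dendritic cell markers had 4 of 16 lower (summed FPKM 653 and 242, with Ccl17 at 296 and 47.6). No marker on these 3 lists was at 0 in both libraries. Many of these markers also stand on function lists, Mgl2, Bst2, Mrc1 and the C1q chains among them. Over the markers on no function list, 5 of 10 monocyte and interstitial macrophage genes were lower (summed FPKM 302 and 310), against 0 of 9 alveolar macrophage genes (402 and 265) and 1 of 9 dendritic cell genes, Batf3 (78.5 and 60.2). In bulk lung, fewer cells of a type and less RNA per cell cannot be told apart, here or in any result below, and the part of cell numbers in the interferon, lectin, complement and protease values was not tested.

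**Figure D2:**
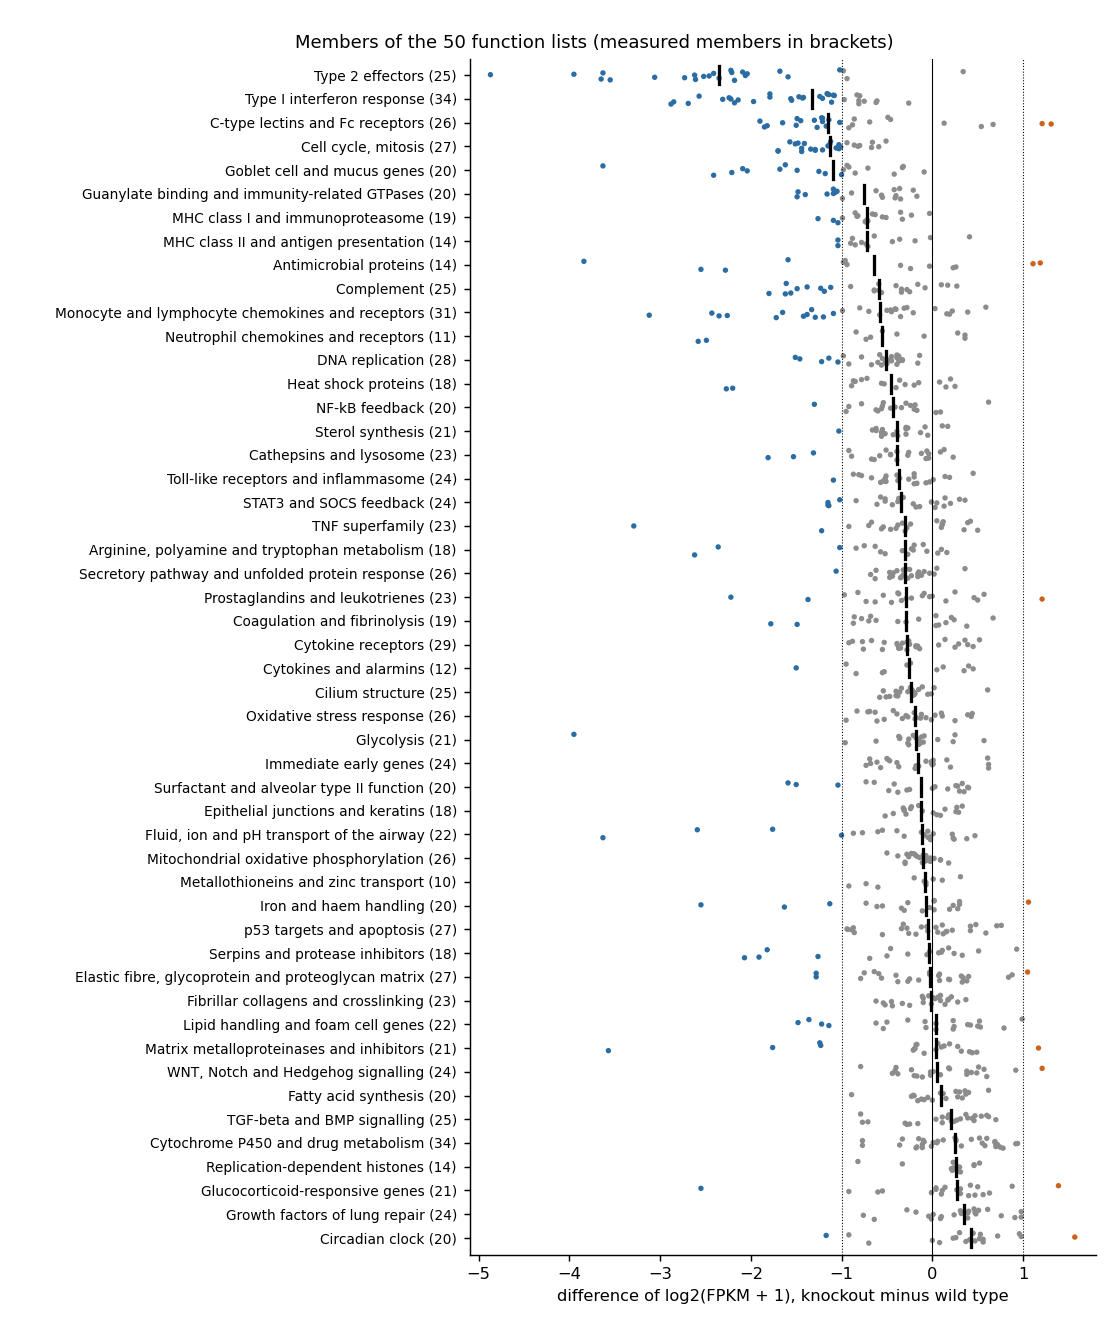
Each point is a measured member of 1 of 50 function lists, at its difference of log2(FPKM + 1), knockout minus wild type. The black bar is the list's median, and blue and orange points are past the size rule. The 5 lists whose median is at or below -1 are type 2 effectors, type I interferon response, C-type lectins and Fc receptors, mitosis and mucus, and no median reaches 1.

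Antimicrobial and chemokine genes held some of the differences furthest from 0, though not in one direction throughout. Of 14 measured antimicrobial genes 4 were lower and 2 higher, with a median of -0.64. The lower ones were Saa3, the lowest named gene outside the type 2 and mucus lists (a difference of -3.84), Lcn2, which withholds iron from bacteria (-2.55), the lectin Reg3g (-2.28) and Chi3l1 (-1.59), which also stands on the type 2 list. The higher ones were S100a8 and S100a9, the calprotectin chains of neutrophils, with differences of 1.11 and 1.19. Lysozyme, Lyz2, lay 0.26 above 0. Neutrophil markers had a median of 0.39 over 10 members, with these 2 higher and Retnlg lower (-1.80).

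Of 31 measured monocyte and lymphocyte chemokine and receptor genes 12 were lower (median -0.58) and 0 higher. Ligands of the monocyte receptor CCR2 were among the lowest: Ccl12 had a difference of -3.12, Ccl7 (also a type 2 list member) was at 6.31 FPKM against 0.430, and Ccl2 at 6.70 against 1.33. The macrophage chemokines Ccl9 and Ccl6 were at 39.9 against 7.54 and 395 against 147, and the interferon-induced Cxcl10 had a difference of -2.43. In the neutrophil chemokine list 2 of 11 were lower, Cxcl1 (-2.58) and Cxcl5 (-2.49), and the lung chemokine Cxcl15 was within the rule at 1336 and 804. Of 12 measured cytokine and alarmin genes Il33, an alarmin of alveolar epithelium, was the only lower one (167 and 58.2). A further 23 list members were not measured. Il6 had 41 reads in wild type against 4 in the knockout (0.0232 to 0.246), Il13 19 against 0 and Tnf 28 against 10. Il5 (12 against 9) and Il11 (44 against 35) had intervals that included an equal level, and Il15 had 77 against 115 (1.01 to 1.85). Of 29 measured cytokine receptors none passed the rule (median -0.28). Il22ra2, which encodes a soluble IL-22 receptor, had 10 reads against 56 (2.59 to 11.3), and Il13ra2 31 against 5. Of 24 Toll-like receptor and inflammasome genes 20 lay below 0 (median -0.37) and Cd14, the endotoxin co-receptor, was lower (40.5 and 18.4).

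Complement, the plasma cascade that tags and lyses microbes, was lower at its start and at its amplification loop. Of 25 measured complement genes 9 were lower and none higher (median -0.59). The 3 chains of C1q, the recognition molecule of the classical pathway, were lower by similar amounts: C1qa was at 132 and 42.5, C1qb at 153 and 43.2 and C1qc at 82.9 and 27.5. The alternative pathway genes Cfb (55.2 and 19.0), Cfp (25.7 and 9.29) and Cfd (54.1 and 22.6) were lower too, and C3, on which the pathways converge, was at 546 and 239. Serping1, an inhibitor of the classical pathway, was near level at 238 and 256. Cfi, another complement inhibitor, had 121 reads in wild type against 33 in the knockout (ratio 0.249, 0.164 to 0.369). Cfd is also a product of fat cells and the C1q chains of macrophages. In the coagulation list only F7 (11.9 and 3.62), the protease of the extrinsic pathway, and F10 (11.1 and 2.53), the protease of the common pathway that it activates, passed the rule among 19 members, whereas thrombomodulin, Thbd, an anticoagulant of endothelium, was 0.67 above (136 and 217).

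Among proteases and their inhibitors the differences past the rule were those of a few members in each list. Mmp12 (chromosome 9, 7344397 to 7360461), the elastase of macrophages, was at 37.5 FPKM in wild type against 2.25 in the knockout, a difference of -3.57. Timp1, an inhibitor of such enzymes, was lower as well (60.9 and 17.3), with Adamts9 and Adam8 the other lower members of 21. Mmp28 was higher, at 6.61 in the knockout against 2.38, and the list median was 0.04. Ctss and Ctsk, cathepsins that degrade elastin and collagen and, for Ctss, process the invariant chain, were at 396 against 136 and 45.2 against 12.2. With the macrophage gene Cd68 (64.9 and 25.7) they were the 3 lower members of the cathepsin and lysosome list, in which 20 of 23 members lay below 0 with a median of -0.39. The lysosomal membrane gene Lamp1 was level at 354 and 344. Of 18 serpins and other inhibitors 4 were lower, all of them members of the Serpina3 cluster or the annotated gene Gm11428: Serpina3g was at 27.7 and 6.64, Serpina3f at 9.73 and 1.55 and Serpina3n at 154 and 63.8. Members of the Serpina3 cluster are close copies, so reads may be split between them. Slpi, the antiprotease of airway secretions, was level at 37.3 and 36.6.

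Few genes of the structural matrix passed the size rule. None of 23 measured collagen and crosslinking genes passed the rule (12 below 0, 11 above, median -0.01). Col1a1 was at 37.6 and 27.4 FPKM and Col3a1 at 126 and 88.0. A collagen gene outside those 23, Col6a5, had 235 reads in wild type against 34 in the knockout (ratio 0.132, 0.0895 to 0.19). In the glycoprotein list Thbs1, which activates latent TGF-beta, was lower (65.0 and 26.1), as was the hyaluronan synthase Has1 (163 reads against 43, ratio 0.241, 0.168 to 0.339). Igfbp3, which binds insulin-like growth factors, was higher (28.8 and 60.5).

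Several metabolic groups were represented by single enzymes. Il4i1 (chromosome 7, 44836288 to 44840809), an amino acid oxidase secreted by antigen-presenting cells, had 212 reads against 5 (ratio 0.0216, 0.00693 to 0.0511). Kmo and Kynu, enzymes of tryptophan breakdown, were at 3.76 against 1.35 and 2.54 against 0.981. In the cholesterol pathway 19 of 21 measured genes lay below 0, with a median of -0.39 and a range from -1.03 to 0.17. Cyp51, a sterol demethylase, was the only lower one (17.8 and 8.18). Lipid handling genes had 4 of 22 lower and a median of 0.04: Fabp4, Ch25h, Trem2 and Msr1, of which Ch25h, the cholesterol 25-hydroxylase, was at 11.1 and 3.69. In glycolysis, 17 of 21 genes lay below 0 by a median of -0.18, and Fbp1, of the reverse pathway and also a type 2 list member, was lower (22.2 and 0.505). Fatty acid synthesis had no member past the rule and a median of 0.10, with Fasn at -0.12. Mitochondrial respiratory genes (26 measured, median -0.10), cytochrome P450 and drug metabolism genes (34 measured, median 0.25) and oxidative stress genes (26 measured, median -0.19) had no member past the rule either. The flavin monooxygenase Fmo2 lay above 0 but within the rule, at 166 and 314.

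Transport proteins of the airway surface were lower in 4 of 22 measured genes. Besides the anion exchanger pendrin, these were Fxyd4, a regulator of the sodium pump, with 77 reads against 6 (ratio 0.0713, 0.0254 to 0.162), the sodium-glucose carrier Slc5a1 at 8.29 and 1.73 FPKM, and the water and glycerol channel Aqp3 at 2.60 and 0.796. The sodium channel subunits Scnn1a, Scnn1b and Scnn1g lay above 0 by 0.24, 0.38 and 0.23. Of 20 measured iron and haem genes 3 were lower and 1 higher, with a median of -0.07. The higher one was Alas2, the haem synthesis enzyme of red cells (20.9 and 44.6), and the lowest was Lcn2. The other lower ones were Hamp, which encodes the hormone hepcidin, with 81 reads against 25 (0.173 to 0.447), and the ferrireductase Steap4, at 10.9 and 4.44. Junction and keratin genes (18 measured, median -0.13), cilium genes (25, median -0.24) and metallothionein and zinc transport genes (10, median -0.08) had no member past the rule.

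Some receptors of activated lymphocytes were far lower in the knockout, while lymphocyte identity genes mostly stayed within the size rule. Tnfrsf9 (4-1BB, chromosome 4, 150920155 to 150946104), a costimulatory receptor, was at 19.0 FPKM in wild type against 1.04 in the knockout, and its ligand Tnfsf9 had 224 reads against 88 (0.278 to 0.462). Ctla4, an inhibitory receptor of activated and regulatory T cells, had 171 reads against 29, a ratio of 0.155 (0.101 to 0.231), and was the only lower gene among 18 measured T cell markers (median -0.32, summed FPKM 101 and 79.2). The T cell receptor chain Cd3e was at 11.2 and 6.49, Cd4 at 4.14 and 2.21 and Cd8b1 at 4.08 and 4.16. Of 15 measured B cell and plasma cell genes 14 lay below 0 and 2 were lower, Fcer2a and the plasma cell gene Mzb1 (7.34 and 2.60), with a median of -0.16. The B cell receptor and surface genes Cd79a, Cd79b and Ms4a1 lay within 0.05 of 0. In the NF-kB list the endothelial adhesion gene Sele had 129 reads against 13 (0.0478 to 0.163) and was the only lower member of 20. In the heat shock list only Hspa1a and Hspa1b were lower (33.8 against 6.22 and 34.1 against 6.62), near-identical copies whose reads cannot be kept apart. Hspa1l had 186 reads in wild type against 59 in the knockout (ratio 0.29, 0.213 to 0.391). The other 16 measured chaperones of the heat shock list lay between -0.89 and 0.25. Their endoplasmic reticulum counterparts were a little below 0 (26 measured, median -0.30, 1 lower).

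The lists of cell division genes differed in how many members passed the rule. All 27 measured mitosis genes lay below 0 and 19 were lower (median -1.13), among them the spindle protein Prc1 at 6.42 and 1.61 FPKM. All 28 replication genes lay below 0 as well, but 5 were lower (median -0.51): Uhrf1, Rrm2, Gins2, Tk1 and Gins1. Histone genes of S phase went the other way in 12 of 14 measured members, with a median of 0.26 and none past the rule. The difference between these lists was not tested, and histone transcripts lack the poly(A) tail, so that their values depend on how RNA was selected, which the sources used here do not give. Genes of p53 response and apoptosis had a median of -0.05 over 27 members.

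**Figure D3:**
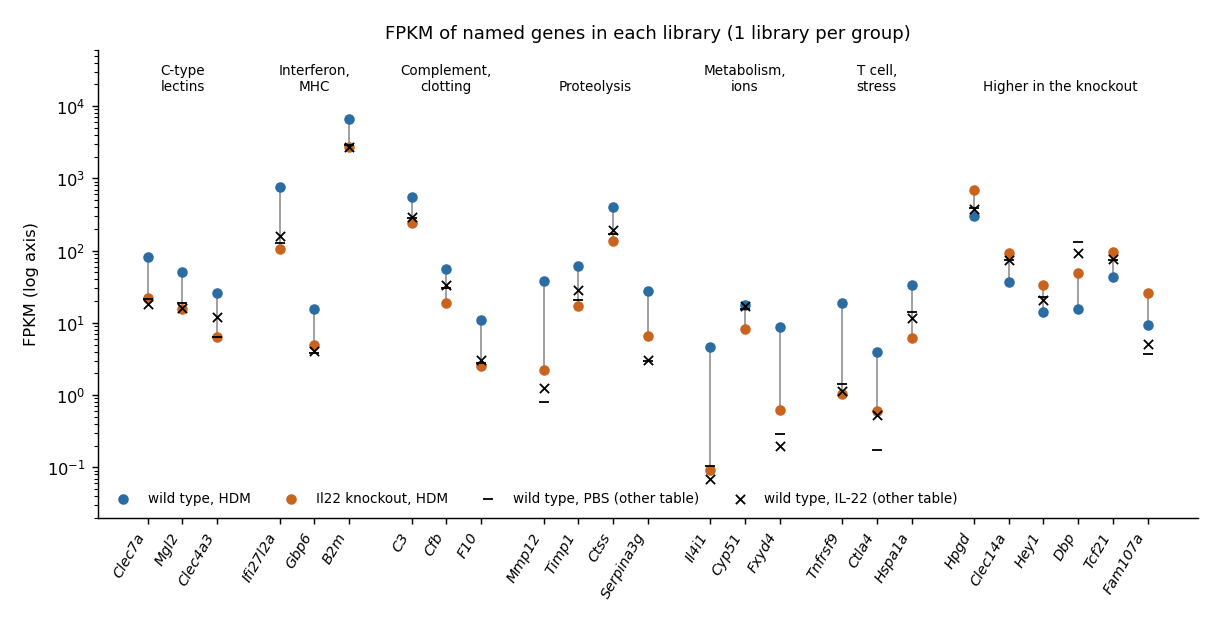
FPKM on a log axis of 25 named genes in the wild-type (blue) and Il22 knockout (orange) HDM libraries, joined by a line, with the PBS (dash) and IL-22 (cross) libraries of the other table beside them. Of the genes on the lower side, Il4i1 and Tnfrsf9 show the widest gaps (4.60 against 0.0929 and 19.0 against 1.04), and the 6 genes at the right are higher in the knockout.

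On the higher side no list reached a median of 1, and the 40 named higher genes included vessel, stromal, clock, neutrophil and red cell genes. Furthest from 0 among them was Rps27, a ribosomal protein gene, with a difference of 3.53. Its retrogene copy Gm9846 (now Rps27rt) was at 2459 and 2408 FPKM, so the 17.4 and 211 FPKM of Rps27 may depend on how reads were split. Next after Dbp and Fam107a came Myrip (4.23 and 12.2), which links secretory granules to myosin, and Nkd2 (2.86 and 8.66), an inhibitor of WNT signalling. Endothelial markers lay above 0 in 20 of 23 measured genes, with a median of 0.46 and 1 past the rule. That gene, Clec14a (chromosome 12, 58264720 to 58269258), is a lectin of vessels. Ramp2, part of the adrenomedullin receptor, was at 289 and 494 FPKM, and its partner Calcrl at 114 and 227. The pan-endothelial genes Pecam1 (190 and 225), Cldn5 (173 and 168) and Vwf (32.5 and 26.4) were near level. Hey1, a target of Notch in vessels, was higher (14.1 and 33.8), and the Notch ligand Dll4 was just within the rule (8.02 and 16.1). Other members of the WNT, Notch and Hedgehog list lay between -0.79 and 0.60.

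Among stromal and growth factor genes few were past the rule. Tcf21, a transcription factor of lipid-bearing lung fibroblasts, was higher in the knockout, at 95.7 FPKM against 43.9, as was the methyltransferase Inmt at 2511 against 1031, while the other 19 fibroblast markers lay within the rule and the median was 0.07. Of 24 growth factors of lung repair 18 lay above 0 and none passed the rule (median 0.35). The largest were Angpt1 (15.1 and 30.8), which stabilizes vessels through Tie2, the epithelial growth factor Fgf7 (a difference of 0.98) and Fgf2 (1.71 and 4.09), whereas Igf1 (10.8 and 5.98) and Areg (11.6 and 7.08) lay below. Hpgd (chromosome 8, 56294552 to 56321046), which inactivates prostaglandins, was higher at 696 against 301, and Tbxas1, the thromboxane synthase, lower at 2.92 against 9.16. The prostaglandin-forming Ptgs2 was at 6.97 in wild type against 4.15, a difference of -0.63.

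Clock and glucocorticoid genes were largely above 0 as well. In the clock list 17 of 20 measured genes lay above 0 (median 0.43), and those furthest from 0 were Dbp (15.7 in wild type and 48.6 in the knockout), Tef (28.9 and 57.8) and Gm129 (now Ciart, a repressor of the clock, 4.89 and 10.5). Nfil3, which represses the sites that Dbp and Tef activate, was lower (5.72 and 1.98), and Bhlhe40 lay below 0 (42.2 and 21.9). Arntl had 252 reads in wild type against 142 in the knockout (ratio 0.515, 0.417 to 0.636). Npas2 had 106 against 65 (ratio 0.561, 0.405 to 0.771). Only Dbp and Nfil3 passed the rule. The hour at which lungs were taken is not given in the sources used here, and its part in these values was not tested. Of 21 glucocorticoid-responsive genes 16 lay above 0, with a list median of 0.27. Fam107a was the only higher one (9.28 and 25.9), and Tat lay 0.88 above, at 115 reads against 32 (ratio 3.29, 2.21 to 5.03). Lcn2 was the only lower one and the furthest from 0, and Mt2 and Mt1 lay below by -0.92 and -0.60. The E-box CACGTG, to which the clock activators bind, stood in 6 of 21 clock windows (28.6%) against 9.59% of all windows and in 1 of 49 windows of higher genes. The D-box TTATGTAA, the site of Dbp and Tef, stood in 1 of 21 clock windows (4.76%) and in 0.584% of all. The 150 bases before the start of 2 of the furthest clock genes are shown with the E-box in capitals, chr3:95882229-95882378 (minus strand) for Gm129 and chr15:81802523-81802672 (plus) for Tef.
Gm129: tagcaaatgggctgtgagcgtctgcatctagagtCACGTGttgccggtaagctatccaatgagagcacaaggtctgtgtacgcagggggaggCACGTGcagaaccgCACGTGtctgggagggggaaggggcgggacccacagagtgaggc
Tef: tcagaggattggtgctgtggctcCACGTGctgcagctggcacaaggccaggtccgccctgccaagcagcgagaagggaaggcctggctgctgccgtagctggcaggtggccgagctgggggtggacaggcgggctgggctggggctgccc
Gm129 held 3 E-boxes, the first starting 116 bases before the start, and Tef held 1, from 127 bases before it.

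**Figure D4:**
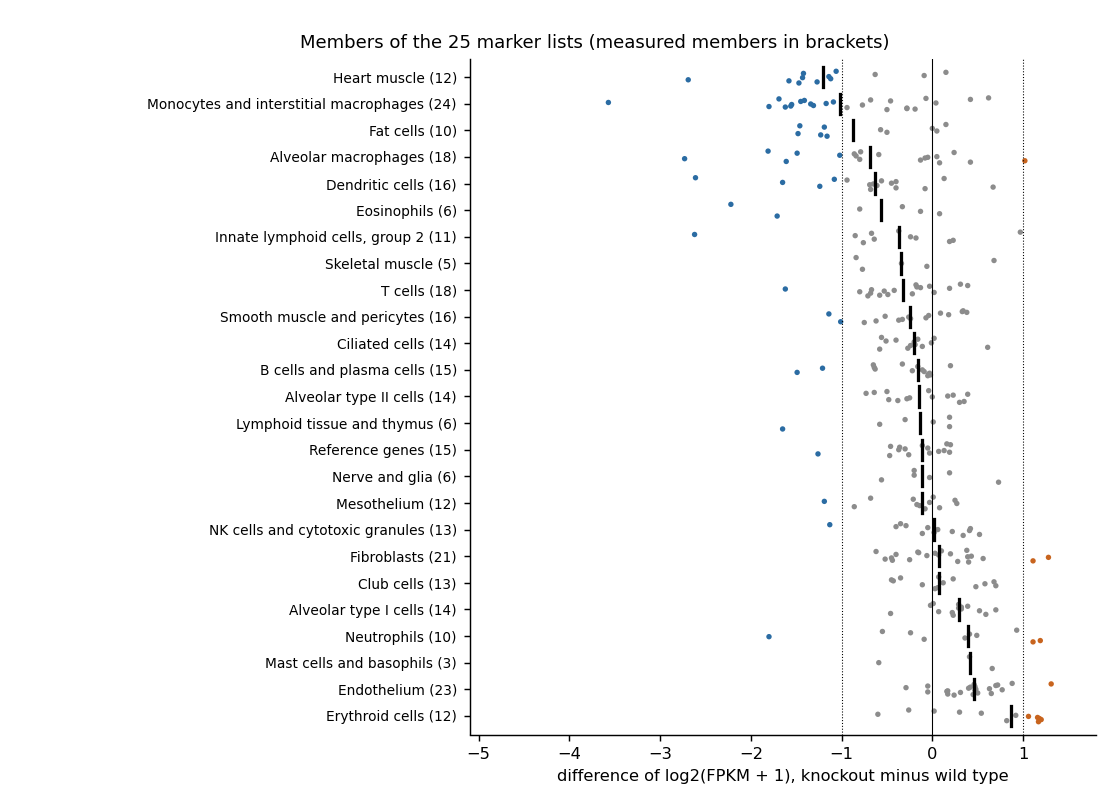
Each point is a measured member of 1 of 25 cell type marker lists, at its difference of log2(FPKM + 1), knockout minus wild type, with the list's median as a bar. Heart muscle (-1.21) and monocyte and interstitial macrophage markers (-1.02) have the lowest medians and erythroid markers (0.87) the highest.

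Some tissue components of the samples differed along with these groups. Of 12 measured erythroid markers 5 were higher, with a summed FPKM of 9539 in wild type and 20541 in the knockout, so red cell RNA took more of the knockout library, while Slc4a1 was under 1 FPKM in both. Epb4.2, a further red cell gene, went the other way, with 62 reads against 12 (ratio 0.177, 0.0868 to 0.332). The part of red cell RNA in the endothelial and clock values was not tested. Of 12 heart muscle markers 9 were lower (summed FPKM 414 and 167), as were 5 of 10 fat cell markers (707 and 673, with Scd1 at 534 and 594). Leptin, a defining fat cell gene, was at 0 in both. The smooth muscle markers lay between -1.14 and 0.38 (2 of 16 lower, median -0.25). Of 15 reference genes, B2m aside, none passed the rule, and the median was -0.11. Over 76 ribosomal protein genes the median was 0.03.

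The PBS and IL-22 libraries, which share no sample with the HDM pair, give a separate look at the same genes. Of 250 genes lower in the knockout that were also measured in that pair, 29 were at least 1 higher with IL-22 (11.6%), against 65 of 12902 genes measured in both (0.504%). Without small RNAs the counts were 21 of 238 (8.82%) against 52 of 12867 (0.404%). The 21 genes are 40.4% of the 52 higher with IL-22. Of 51 genes higher in the knockout, small RNAs aside, 0 were higher with IL-22 and 1 was lower. The median IL-22 minus PBS difference of the 238 genes was 0.13, against 0.04 for all, so most genes lower in the knockout were near level in the other pair.

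The shared genes included secreted products of epithelium, macrophage genes and genes of fat and muscle. Reg3g was at 214 FPKM in wild type against 43.4 in the knockout after HDM, and at 146 with IL-22 and 57.2 with PBS. Clca3 was at 1343 and 326, and at 27.9 and 5.79. Orm1, an acute phase glycoprotein, was at 4.08 and 0.539, and at 7.87 and 1.77. The macrophage genes were C1qb, Aif1, Ms4a7, Ms4a6c and Fcrls, with Fcrls at 6.34 and 2.17 after HDM and 36.0 and 4.88 in the other pair. Cd72, a B cell co-receptor gene that stood on no list, was at 8.96 and 3.91, and at 35.0 and 5.89. Adipoq (4.66 and 1.53 after HDM, and a difference of 1.46 in the other pair), Cfd, Fabp4, Car3 and Pck1 are genes of fat cells, Nppa of atrial muscle and Actg2 of smooth muscle. How much of each of these tissues was in each sample was not tested. Type I interferon genes were not among them: Ifit1 was at 6.07 with IL-22 and 7.49 with PBS, Isg15 at 15.7 and 17.1 and Zbp1 at 7.30 and 8.54. The same held for Mmp12 (1.24 and 0.806), Clec7a, Tnfrsf9 and B2m. The tables may have been normalized apart, so levels are compared only within each.

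**Figure D5:**
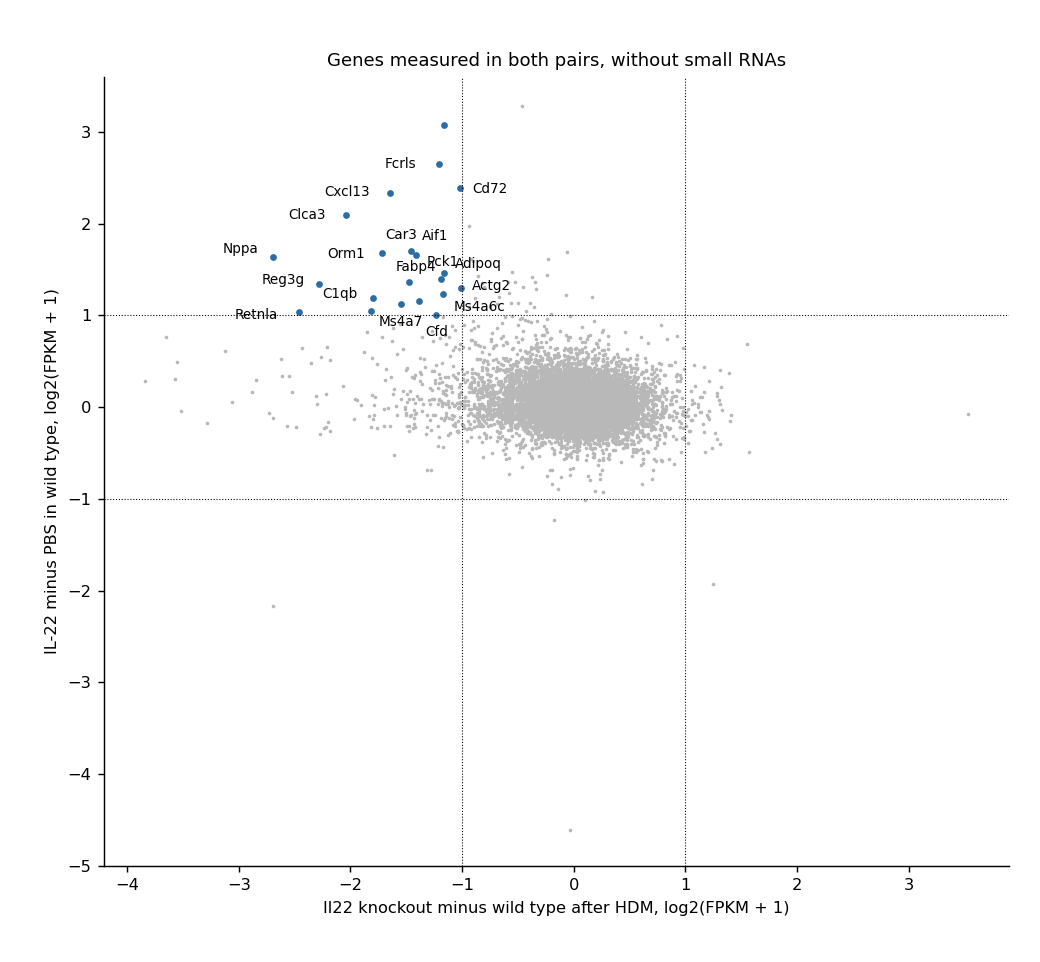
Each point is a gene measured in both pairs, small RNAs left out, at its knockout minus wild type difference after HDM (horizontal) and its IL-22 minus PBS difference (vertical), both of log2(FPKM + 1). Blue points are the 21 genes at least 1 lower in the knockout and at least 1 higher with IL-22, the 18 of them with established names are labelled, and dotted lines mark differences of 1.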

How the data were processed

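Whole-lung RNA from 4 groups was measured, 1 library each, and groups were taken from the sample titles. The deposited values are FPKM per transcript row, and the tools named in the submitters' processing notes are Cufflinks 2.2.1, TopHat2 and CASAVA 1.8.2, with build mm10. Their settings are not given here. RNA was column-purified from frozen lungs, per the labels' protocols. In the HDM table, 25 symbols turned into dates were restored from their accessions, 98.2% of 23746 rows matched RefSeq, and rows of 1 symbol were summed. Differences are of log2(FPKM + 1) computed from the authors' FPKM, where the mean FPKM was at least 1, called at a size of 1. Depth came from the steps of low values (59.4% of 5456 within 0.1 of a whole read, 20% by spacing alone). Coordinates and promoters are RefSeq, GRCm38.p6, the assembly of mm10. The members and lists were chosen with earlier results of these data known. Genes were taken for naming as Il22, Iltifb, the 6 members furthest from 0 in each list, and the 30 largest each way outside type 2 and mucus lists, leaving out predicted genes, small RNAs and receptor segments. Other list members, and genes shared with the IL-22 pair, are examples chosen after their values were seen. Not every gene so taken is printed, and some list members are not reported here. Alternatives were another pseudocount, filter, scaling, row rule or size rule, or leaving out small RNAs and predicted genes. The steps were tested on simulated data. The work used scipy 1.17.1, matplotlib 3.10.9, pandas 2.3.3 and numpy 2.4.6 under Python 3.11.15.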

Additional observations from a re-analysis of the deposited data

How the results depend on the processing

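The 322 lower genes became 488 with a pseudocount of 0.1, 193 with a mean FPKM of at least 5 and 126 with a size rule of 1.5. The 73 higher genes became 131 and 25 with the first and last of these, and 40 without small RNAs and predicted genes. Between 76.4% and 87.2% of called genes were lower under every alternative, against 81.5% as reported. The 29 genes also higher with IL-22 became 6 with a size rule of 1.5 and 18 without small RNAs and predicted genes. Scaling by the median ratio left 336 lower and 66 higher, including all 322, and took 1 of 420 named genes out of the size rule (Fabp1) and 2 into it (Chaf1b and Tap1). List medians near 0 changed sign in 2 lists under that scaling and in 3 with a mean FPKM of at least 5. No paired analysis was possible because each group is 1 library, and leaving out a replicate was not possible for the same reason. With 1 library a group, spread between mice was not measured, and no depth changes that.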

Other observations

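Genes on no list made up 87 of the 273 named lower genes. The furthest from 0 among them were Rpl34-ps1, a copy of a ribosomal protein gene whose reads can be shared with other copies, at 11.35 FPKM (wild type) against 0.00157 (knockout), Ly6i, a GPI-anchored surface protein, at 54.1 and 3.82, and Sprr2a2, a small proline-rich protein of squamous epithelium, at 6.94 and 0.131. Further examples, chosen after their values were seen, were Rgs1 (9.96 and 1.82), a regulator of G protein signalling in lymphocytes, Cd83 (14.8 and 4.89), a surface marker of mature dendritic cells, the actin-severing protein gene Scin (8.13 and 1.49), the creatine-synthesis enzyme gene Gatm (11.2 and 2.46) and the mitochondrial folate enzyme gene Mthfd2 (5.95 and 1.58).

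Nnt, the mitochondrial transhydrogenase gene that is partly deleted in the C57BL/6J substrain, was at 10.5 FPKM in wild type against 4.63 in the knockout after HDM, and at 4.23 with both PBS and IL-22. The substrain of each group is not given in the labels, and exon-level values were not analysed here. If the 2 HDM groups differed in substrain, that could not be told apart from the Il22 genotype in any difference above. Wdfy1 was at 10.5 and 3.79 after HDM and at 1.88 and 2.07 with PBS and IL-22.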
